A study of Mus musculus with 6 samples.

Results

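The 9 genes described here carry iron and related metals across membranes, store iron, or sense it: Slc11a1, Slc11a2, Slc40a1, Tfrc, Steap3, Fth1, Ftl1, Aco1 and Ireb2. They were taken by symbol from 18946 genes listed in 2 deposited tables of RNA levels, and all 9 were found in both tables. Slc11a1 was chosen by its measured FPKM, which was higher with both Notch1 plasmids than in the control cells, so that difference is a description with no test. The other 8 were included for what they do.

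The RNA came from BaF3, an established mouse cell line, labelled a pro-B line, that grows on interleukin-3. The cells grew in 2 ng/mL mouse interleukin-3 and 10% serum, received a plasmid by nucleofection (an electrical pulse that carries DNA to the nucleus), and were sorted 24 h later. The CTdel group received the pmax-Clover-CTdel plasmid, a mutated form of the Notch1 intracellular domain (ICN). The ICN group received pmax-Clover-ICN, and the con group received pmax-Clover, which makes the green fluorescent protein Clover alone. What CTdel stands for is not given in the sources used here. There were 2 libraries per group (replicates 1 and 2). The labels do not say whether these were separate cultures; the p-values below reflect how far such libraries vary, which may be technical.

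Values are FPKM, fragment counts scaled for transcript length and library size, so levels can be compared between genes. Each library's FPKM summed to between 489693 and 507894. The smallest steps of small RNA genes put the depth of each library at 0.962 to 1.08 times that of con replicate 1. Read totals are unknown, so no detection limit is given. Genes above 0 numbered 15822 and 15599 in CTdel, 16413 and 16946 in ICN, and 14951 and 14981 in con. More genes thus had a value above 0 in the libraries with a Notch1 plasmid. Notch1 reads, from the plasmid and the cell's own gene together, stood at FPKM 84.9 and 25.4 in CTdel, 190 and 888 in ICN, and 0.89 and 1.72 in con. The species of the ICN sequence is not given in the sources used here, so it is not known how fully plasmid reads were counted under the mouse gene or whether the 2 forms were at matched levels. A difference in their level and the mutation cannot be told apart when CTdel is set against ICN. The interleukin-3 receptor chain Csf2rb was at FPKM 166 to 297 in the 6 libraries, and the B-cell receptor chain Cd79b at 3.62 to 13.42. Of the 14 listed markers of pro-B and BaF3 cells, 6 reached FPKM 1 in 2 or more libraries, while Ebf1, Pax5, Igll1, Vpreb1, Rag1, Rag2 and Il7r, which mark early B cells, were at or under 0.37 wherever they were listed.

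A dividing cell takes up iron as transferrin bound to the transferrin receptor (Tfrc). In the endosome Steap3 reduces the iron and Slc11a2, also called DMT1, carries it to the cytosol, where the surplus is packed into shells of ferritin built from heavy (Fth1) and light (Ftl1) chains. Slc40a1, ferroportin, exports iron, and Slc11a1, also called NRAMP1, is a relative of Slc11a2 that moves metals out of the phagosomes of macrophages. Aco1 and Ireb2 encode the iron regulatory proteins, which in iron-poor cells bind a hairpin in mRNAs, the iron-responsive element. Bound near the start of an mRNA they block its translation, and bound behind the coding sequence of Tfrc they protect the mRNA from decay.

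The elements of the 9 genes are shown because they set out which members this system reads at the RNA level and which at the protein level. Transcripts of GENCODE release M21 (build GRCm38) that match the RefSeq transcripts in the tables were searched for a C, a stem arm of 5 bases, the loop CAGTGN and the 5 bases that pair with the arm (G with T allowed). The loop is in capitals. Fth1, Ftl1 and Slc40a1 each held 1 such element in the 5′ UTR, and Tfrc held 4 in the 3′ UTR.
Fth1: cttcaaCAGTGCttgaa
Ftl1: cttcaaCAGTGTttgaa
Slc40a1: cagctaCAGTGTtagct
Tfrc element 1: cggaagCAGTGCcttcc
Tfrc element 2: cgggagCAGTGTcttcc
Tfrc element 3: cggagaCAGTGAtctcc
Tfrc element 4: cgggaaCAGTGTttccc
The Fth1 element lies at chr19:9982738-9982754 on the plus strand, that of Ftl1 at chr7:45459785-45459801 on the minus strand and that of Slc40a1 at chr1:45925471-45925487 on the minus strand. The Tfrc elements lie on the plus strand, the first at chr16:32631225-32631241 and the fourth at chr16:32631716-32631732. Both ferritin elements share the same stem arms and differ in the last base of the loop. Among 21877 genes with a coding sequence in that release, 0.142% held such an element in a 5′ UTR and 0.59% in a 3′ UTR.

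A second search allowed 1 unpaired base on the far side of the stem, a shape held in a 3′ UTR by 1.07% of the genes. It matched Slc11a2 in 1 of its 2 transcripts, at chr15:100395158-100395175 on the minus strand, 41 bases behind the coding sequence.
Slc11a2: cagagcCAGTGTgtttct
The deposited values are per gene, so the Slc11a2 transcripts with and without the element are summed. Neither search matched the transcripts of Slc11a1, Steap3, Aco1 or Ireb2.

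**Figure D1:**
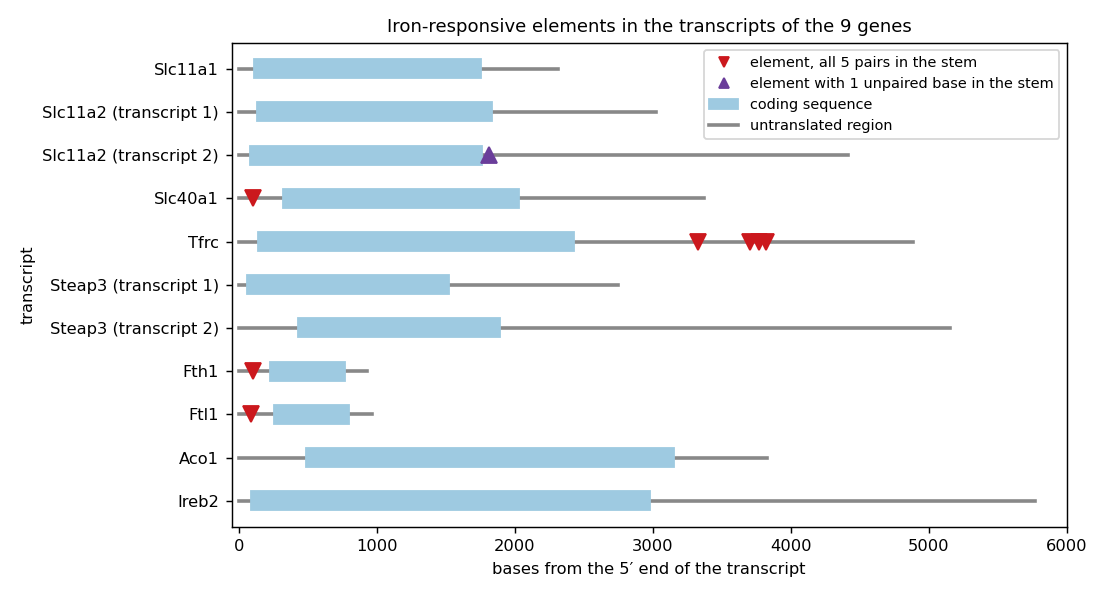
Transcripts of the 9 genes drawn to scale in bases from the 5′ end, with the coding sequence as a blue bar and the untranslated regions as grey lines. Red triangles mark elements with all 5 stem pairs, 1 each ahead of the coding sequence of Slc40a1, Fth1 and Ftl1 and 4 behind that of Tfrc, and the purple triangle marks the element with 1 unpaired base in a Slc11a2 transcript.

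Slc11a1 (Gene ID 18173, chromosome 1, 74375014 to 74386057 in GRCm38.p6) was close to silent in con cells and clearly present with either Notch1 plasmid. It had FPKM 6.54 and 7.01 in CTdel, 7.66 and 13.87 in ICN, and 0.50 and 0.80 in con. Both libraries of each Notch1 form thus lay above both con libraries, which was also so for 12% of the 11050 genes tested (18.3% for CTdel alone and 22.7% for ICN alone). In bulk RNA, more cells that express a gene and more RNA per cell cannot be told apart. Within replicate 1 the level was 13.1 times that of con in CTdel and 15.3 times in ICN, and within replicate 2 it was 8.76 and 17.3 times. The log2(FPKM + 1) scale understates changes of low genes. On it the difference from con was 2.24 ± 0.253 in CTdel and 2.79 ± 0.253 in ICN (± SE, 2 libraries per group). The SE is that of limma's fit, which shares its estimate of spread over the 3 groups. It is no test, since Slc11a1 was chosen for this rise. With a pseudocount of 0.1 in place of 1 the differences were 3.23 and 3.82. Slc11a1 passed the filter on low values (2 or more libraries at or above FPKM 1) only through the libraries with a Notch1 plasmid.

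CTdel against ICN was not used to choose Slc11a1, and there it had a log2 difference of −0.55 (95% interval −1.17 to 0.08; limma adjusted p = 0.705). Both CTdel values were below both ICN values, by a small margin except in ICN replicate 2.

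A transcript start of Slc11a1 is shown because ICN is known to act on DNA through the factor RBPJ, whose core motif is TGGGAA. The RefSeq window ran from 250 bases before to 50 after the transcript start at 74375203 (GRCm38.p6). The gene as placed above begins earlier, at 74375014. In the window the motif occurred in both orientations, at −10 on the plus strand and at 6 on the minus strand. There were 9 bases between the matches. The stretch at chr1:74375191-74375215, plus strand, reads as follows, with the matches in capitals.
Slc11a1: gaTGGGAAgggcgtgggTTCCCAct
Of 32851 windows of the same length, 25.6% held at least 1 match on either strand and 3.79% at least 2. RefSeq windows were found for 7 of the 9 genes, 12 windows in all, and 3 held a match: those of Slc11a1, Aco1 and 1 of the 2 Fth1 windows. A match is a run of letters and not a measured binding site.

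Slc11a1 is a gene of macrophages, so macrophage markers were read in the same libraries. Of 11 listed, 9 had values; Cd14, Mrc1, Marco and Vsig4 were at or under FPKM 0.16 in each library that listed them. Csf1r, the receptor of a macrophage growth factor, had 7.96 and 1.72 in CTdel, 3.34 and 0.10 in ICN, and 0.05 and 0.01 in con. Cd68, a lysosomal protein of macrophages, had 22.96 and 14.04 in CTdel, 21.55 and 11.87 in ICN, and 8.32 and 4.46 in con. Adgre1, a surface marker of mouse macrophages, was between 21.5 and 61.8 in all groups, con included. The summed level of the list ran from 71.7 to 99.4 in CTdel, 38.5 to 90.7 in ICN and 46.6 to 90.9 in con. Fcgr1, an antibody receptor of macrophages, had 3.09 and 2.57 in CTdel, 3.21 and 3.85 in ICN, and 19.96 and 5.61 in con. Lyz2, which encodes a lysozyme, had 3.43 and 1.21 in CTdel, 5.08 and 0.88 in ICN, and 1.72 and 3.3 in con. Csf1r and Cd68 thus lay above con in all 4 libraries with a Notch1 plasmid, as did 12% of all genes tested. Csf1r passed the filter on low values only through libraries with a Notch1 plasmid, so that share is not a like background for it. Fcgr1 lay below con in all 4, as did 12.2% of all genes tested, and Lyz2 was mixed. In ICN replicate 2, where Slc11a1 was highest, Csf1r had 0.10 and Cd68 had 11.87, beside 0.01 and 4.46 in con replicate 2. The part of these genes in the difference of Slc11a1 was not tested.

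The genes whose pattern over the 6 libraries was most like that of Slc11a1 were Ulbp1, Gramd1b, Stk11ip, Crtc2 and Socs2, with Pearson's r of 0.996 or more on log2(FPKM + 1) centred within each replicate number. Ulbp1, for example, had FPKM 9.54 and 11.11 in CTdel, 9.93 and 14.2 in ICN, and 4.6 and 5.8 in con. Of the 11043 genes compared, 0.118% had r over 0.99, 1.68% over 0.95 and 4.3% over 0.9, from only 6 libraries. Slc11a1 was chosen by these same values, so the likeness is a description. A high r does not mean a difference of like size. Socs2 had FPKM 29.07 and 25.82 in CTdel, 29.67 and 29.03 in ICN, and 23.07 and 20.16 in con.

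Slc11a2 (chromosome 15) had FPKM 12.73 and 9.62 in CTdel, 8.70 and 5.73 in ICN, and 10.78 and 13.74 in con. Both ICN libraries were below both con libraries, as for 19.6% of all genes tested, and CTdel was above con in replicate 1 and below it in replicate 2. In ICN the log2 difference was −0.71 (95% interval −1.37 to −0.04), which did not pass over all genes (adjusted p = 0.320). In CTdel it was −0.13 (95% interval −0.79 to 0.54; adjusted p = 0.916). The balance of the relatives shifted in each library with a Notch1 plasmid: Slc11a1 stood at 0.514 and 0.729 times the FPKM of Slc11a2 in CTdel, 0.88 and 2.42 times in ICN, and 0.0464 and 0.0582 times in con. That shift follows from how Slc11a1 was chosen and is given as a description.

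The exporter Slc40a1 (chromosome 1) was listed at FPKM 0.02 and 0 in CTdel, 0.02 and 0.02 in ICN, and 0 and 0 in con. The smallest value above 0 in the tables is 0.01, so this gene was at the floor in all 6 libraries and was left out of the test by the filter on low values.

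**Figure D2:**
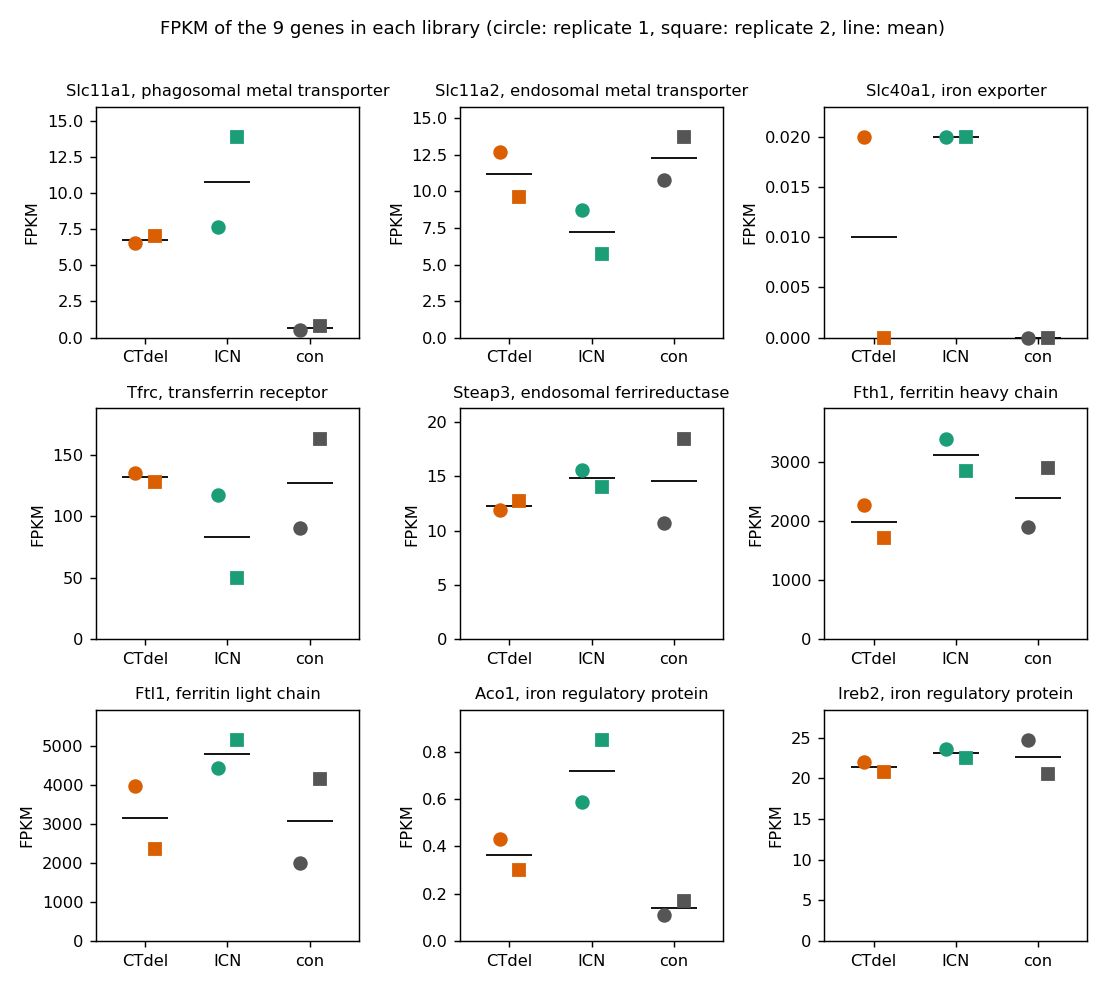
FPKM of each of the 9 genes in each library on a linear axis from 0, with CTdel, ICN and con from left to right, circles for replicate 1, squares for replicate 2 and a line at the mean. Slc11a1 lies between 6.54 and 13.87 in the 4 libraries with a Notch1 plasmid and at 0.50 and 0.80 in con, while Ireb2 lies between 20.61 and 24.71 throughout.

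Tfrc (chromosome 16, 32608896 to 32632794) was abundant, with FPKM 135 and 128 in CTdel, 117 and 49.4 in ICN, and 90.1 and 163 in con. The CTdel libraries lay close together between the con libraries, and ICN replicate 2 was the lowest of the 6. The log2 difference was 0.12 in CTdel (95% interval −1.04 to 1.28; adjusted p = 0.962) and −0.67 in ICN (95% interval −1.83 to 0.50; adjusted p = 0.517). The ICN value rests on which libraries are set side by side. Within replicate 1 ICN was 1.3 times con, and within replicate 2 it was 0.303 times con. Without ICN replicate 1 the difference was −1.47, and without ICN replicate 2 it was 0.14. Without con replicate 1 it was −1.42, and without con replicate 2 it was 0.09. Each of these fits leaves 1 library in a group.

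Steap3, the ferrireductase that works beside Tfrc in the endosome, had FPKM 11.9 and 12.73 in CTdel, 15.63 and 14.04 in ICN, and 10.72 and 18.48 in con. The con libraries held both the lowest and the highest value, so neither form could be set apart from con (adjusted p = 0.864 in CTdel and 0.919 in ICN).

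The ferritin chains were among the most abundant mRNAs of these cells, with ranks from 3 to 39 for Fth1 and 2 to 25 for Ftl1 among the 16799 genes in both tables. Fth1 (chromosome 19), whose chain oxidises iron on entry, had FPKM 2270 and 1707 in CTdel, 3392 and 2848 in ICN, and 1894 and 2886 in con. Ftl1 (chromosome 7), whose chain helps the iron core to form, had 3959 and 2346 in CTdel, 4430 and 5143 in ICN, and 1990 and 4161 in con. The con libraries differed from each other more than the forms differed from con on average: con replicate 1 held 0.784% of its FPKM sum in the ferritin pair and con replicate 2 held 1.41%, with 1.23% and 0.823% in CTdel and 1.58% and 1.63% in ICN. Accordingly Ftl1 in CTdel was 1.99 times con within replicate 1 and 0.564 times within replicate 2. In ICN both Ftl1 values were above both con values, which was so for 22.7% of all genes tested. Both chains have many processed copies in the mouse genome, and how the counting placed reads shared with those copies is not given in the sources used here.

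Neither chain passed against con. For Fth1 the log2 difference was −0.25 in CTdel (95% interval −0.95 to 0.46; adjusted p = 0.830) and 0.41 in ICN (−0.29 to 1.12; adjusted p = 0.510). For Ftl1 it was 0.08 in CTdel (95% interval −0.94 to 1.10; adjusted p = 0.969) and 0.73 in ICN (−0.29 to 1.75; adjusted p = 0.434), and the ICN value ran from 0.06 to 1.40 with any 1 library left out. The light chain was above the heavy chain in each library, at 1.74 and 1.37 times its FPKM in CTdel, 1.31 and 1.81 times in ICN, and 1.05 and 1.44 times in con.

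Ireb2 (chromosome 9) was the steadiest of the 9 genes, with FPKM 21.98 and 20.83 in CTdel, 23.68 and 22.55 in ICN, and 24.71 and 20.61 in con. Its highest value was 1.2 times its lowest, and its 95% intervals against con, −0.56 to 0.41 in CTdel and −0.45 to 0.52 in ICN, were the narrowest among the members tested (adjusted p = 0.934 and 0.948).

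Aco1 (chromosome 4), which is an aconitase when it holds an iron-sulfur cluster and binds RNA when it does not, was low. It had FPKM 0.43 and 0.30 in CTdel, 0.59 and 0.85 in ICN, and 0.11 and 0.17 in con. All 4 libraries with a Notch1 plasmid lay above both con libraries, as for 12% of the genes tested, but Aco1 itself was under the filter on low values. In limma's fit without that filter, over 16799 genes, its log2 difference was 0.26 in CTdel (adjusted p = 0.599) and 0.59 in ICN (adjusted p = 0.324). Ireb2 exceeded Aco1 in FPKM by 51.1 and 69.4 times in CTdel, 40.1 and 26.5 times in ICN, and 225 and 121 times in con.

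Of the 8 members other than Slc11a1, 6 could be tested against con. Limma called 0 of them in CTdel, where 1.41% of all genes tested were called, with adjusted p from 0.830 to 0.969 and 0 at an unadjusted p under 0.05. It called 0 in ICN, where 0.0362% of genes were called, with adjusted p from 0.320 to 0.948 and 1, Slc11a2, at an unadjusted p under 0.05. With both forms set against con together it again called 0, against 1.11% of genes (1.01% higher and 0.0995% lower), with adjusted p from 0.457 to 0.964 and 0 at an unadjusted p under 0.05. The median difference of the 6 was −0.10 in CTdel and 0.05 in ICN, beside −0.06 and 0.00 over all genes tested. In CTdel 0 of the 6 kept the same direction in both replicates, and in ICN 2 did (Slc11a2 and Ftl1), while 62% and 56.5% of all genes tested did so. A result of 0 calls does not show that the levels are alike, since the intervals of Tfrc and Ftl1 above each span more than 2 log2 units.

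**Figure D3:**
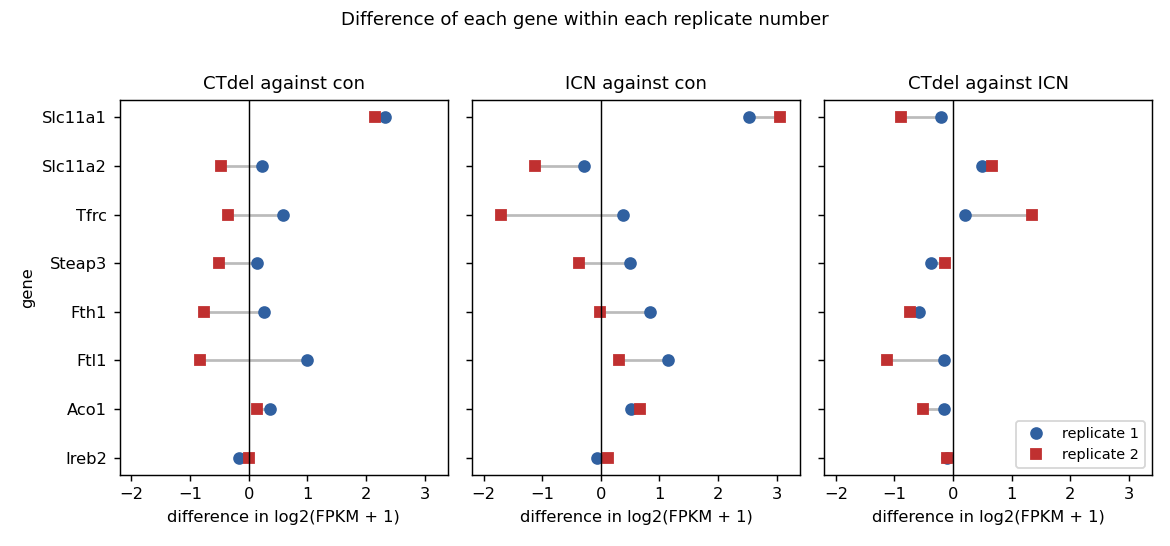
Difference in log2(FPKM + 1) of 8 genes within replicate 1 (circles) and within replicate 2 (squares) for CTdel against con, ICN against con and CTdel against ICN. Apart from Slc11a1 and Aco1, the genes fall on both sides of 0 in CTdel against con, while in CTdel against ICN both points of each gene lie on 1 side.

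The mutated form was next set against the full domain. Each of the 7 members tested differed in the same direction in both replicates, as did 62.4% of all genes tested. The CTdel and ICN libraries of all 7 did not overlap, which was so for 40.6% of all genes tested. These counts were looked at after the values had been seen. The 5 that were lower in CTdel libraries than in ICN libraries were Fth1, Ftl1, Steap3, Ireb2 and Slc11a1 (both CTdel libraries were below both ICN libraries for 25% of all genes), and the 2 that were higher were Tfrc and Slc11a2 (15.6% of all genes).

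None of these differences passed over all genes. Limma called 0 of the 7 members between the forms, with adjusted p from 0.705 to 0.9 and 0 at an unadjusted p under 0.05, and called 0.0181% of all genes (7.13% at an unadjusted p under 0.05). With CTdel and ICN fitted alone, Slc11a2, Tfrc, Fth1 and Ftl1 were at an unadjusted p under 0.05, as were 9.96% of all genes, and their adjusted p was 0.394 or more. Fth1 had a log2 difference of −0.66 (95% interval −1.36 to 0.05; adjusted p = 0.705), and Ftl1 had −0.65 (−1.67 to 0.37; adjusted p = 0.736). Slc11a2 had 0.58 (95% interval −0.08 to 1.24; adjusted p = 0.705). Tfrc had 0.78 (95% interval −0.38 to 1.94, adjusted p = 0.723). It had 1.59 without ICN replicate 1 and −0.02 without ICN replicate 2, in fits that leave 1 ICN library. Steap3 and Ireb2 had −0.25 and −0.11. The FPKM of Tfrc was 0.0596 and 0.0749 times that of Fth1 in CTdel, 0.0345 and 0.0174 times in ICN, and 0.0476 and 0.0565 times in con. This ratio was lowest in the ICN libraries, above all in replicate 2, where Tfrc was lowest. It is given as values, with no test and no share over other gene pairs.

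**Figure D4:**
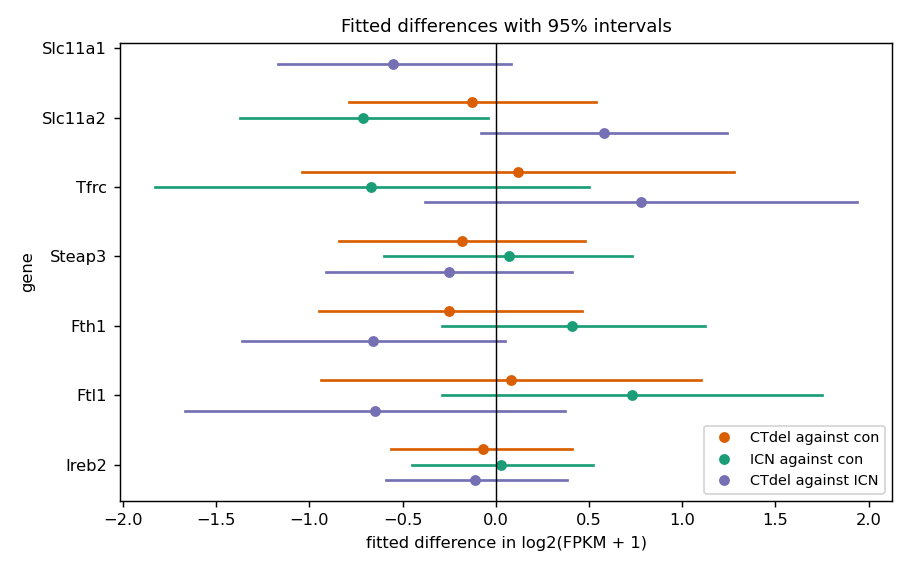
Fitted differences in log2(FPKM + 1) with 95% intervals for the 7 members tested, in CTdel against con, ICN against con and CTdel against ICN. Slc11a1 is shown for CTdel against ICN alone, and of the intervals drawn the one that leaves out 0 is that of Slc11a2 in ICN against con, which did not pass after adjustment.

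Other genes of iron, haem, zinc and copper handling were read from 7 lists with 123 genes, of which 95 were tested. None passed in limma's test: 0 of 95 in CTdel against con, 0 in ICN against con and 0 in CTdel against ICN, where 1.41%, 0.0362% and 0.0181% of all genes were called. At an unadjusted p under 0.05 there were 10, 9 and 5 of the 95, beside 11.8%, 15% and 7.13% of all genes in the same 3 comparisons. The median difference per list lay between −0.10 and 0.10 in CTdel and between −0.13 and 0.19 in ICN.

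In the uptake list (11 tested, median 0.10 in CTdel and 0.12 in ICN), Hfe, which binds the transferrin receptor, had FPKM 3.72 and 1.88 in CTdel, 0.93 and 0.67 in ICN, and 0.22 and 0.23 in con. It lay higher in all 4 libraries with a Notch1 plasmid, as for 12% of all genes tested. It did not pass in limma's test (adjusted p = 0.082 in CTdel and 0.404 in ICN). Hfe passed the filter on low values only through the CTdel libraries, where it was high. Neither that test nor the 12% share can therefore weigh its rise, which is given as a description. Lcn2, a carrier of iron-binding siderophores, had 3.05 and 2.25 in CTdel, 6.25 and 2.30 in ICN, and 8.12 and 4.16 in con (adjusted p = 0.235 and 0.422). In the storage list (7 tested, median −0.10 and −0.13), Ncoa4, which delivers ferritin for breakdown in lysosomes, had 210 and 168 in CTdel, 232 and 138 in ICN, and 151 and 76.4 in con. It was higher than con within both replicates in both forms (log2 difference 0.80 and 0.73, adjusted p = 0.235 and 0.269 in limma's test). Of all genes tested, 62% in CTdel and 56.5% in ICN kept the same direction in both replicates. The Ncoa4 value of ICN replicate 2 was below that of con replicate 1. The RNA-binding protein gene Pcbp4 had a log2 difference of −0.48 in CTdel and −0.40 in ICN (adjusted p = 0.466 and 0.412).

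In the export list (4 tested, median −0.02 in CTdel and 0.15 in ICN), Hamp, which encodes hepcidin, the hormone that shuts ferroportin, had FPKM 1.64 and 0.60 in CTdel, 3.55 and 9.58 in ICN, and 0 and 0.52 in con (log2 difference 0.74 and 2.49, adjusted p = 0.657 and 0.154). It has a close copy in the mouse, Hamp2, so these low values are uncertain. Hamp also passed the filter on low values only through libraries with a Notch1 plasmid, so its test against con cannot weigh its rise. The ferroxidase gene Cp had log2 differences of −0.33 and −0.36 (adjusted p = 0.847 and 0.687).

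The haem synthesis list (14 tested) had a median of −0.05 in CTdel and −0.08 in ICN. Cpox, an enzyme of the pathway, had FPKM 13.58 and 12.3 in CTdel, 15.56 and 13.11 in ICN, and 26.88 and 19.42 in con, with both forms below con in all libraries, as for 12.2% of all genes tested (adjusted p = 0.183 and 0.268). Its neighbour in the pathway, Ppox, had log2 differences of 0.50 and −0.12 (adjusted p = 0.528 and 0.831). In the haem breakdown list (7 tested, median −0.03 and 0.06), Hmox2 and Flvcr1 had log2 differences of −0.25 and −0.37 in CTdel (adjusted p = 0.720 and 0.625). Hmox1, the inducible haem oxygenase, was singled out after its values were seen: it had FPKM 187 and 60.1 in CTdel, 267 and 329 in ICN, and 62.4 and 114 in con, and did not pass in ICN (log2 difference 1.80, adjusted p = 0.269).

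All 26 genes of iron-sulfur cluster assembly were tested, with a median of −0.05 in CTdel and −0.07 in ICN. The 2 with the smallest p in CTdel were Isca1 (log2 difference −0.70, adjusted p = 0.239) and Fdx1l (−0.80, adjusted p = 0.254). The list of zinc, copper and manganese genes (26 tested) had a median of 0.02 in CTdel and 0.19 in ICN. In it Slc39a13, a zinc transporter, had FPKM 11.44 and 17.37 in CTdel, 6.21 and 7.57 in ICN, and 5.11 and 5.78 in con (adjusted p = 0.0719 and 0.535). The metallothionein Mt2 had 965 and 394 in CTdel, 1109 and 473 in ICN, and 695 and 273 in con (limma adjusted p = 0.369 and 0.207). It was higher than con within each replicate in both forms, and lower in replicate 2 than in replicate 1 of all 3 groups. The direction was the same in both replicates for 62% of all genes tested in CTdel and 56.5% in ICN.

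**Figure D5:**
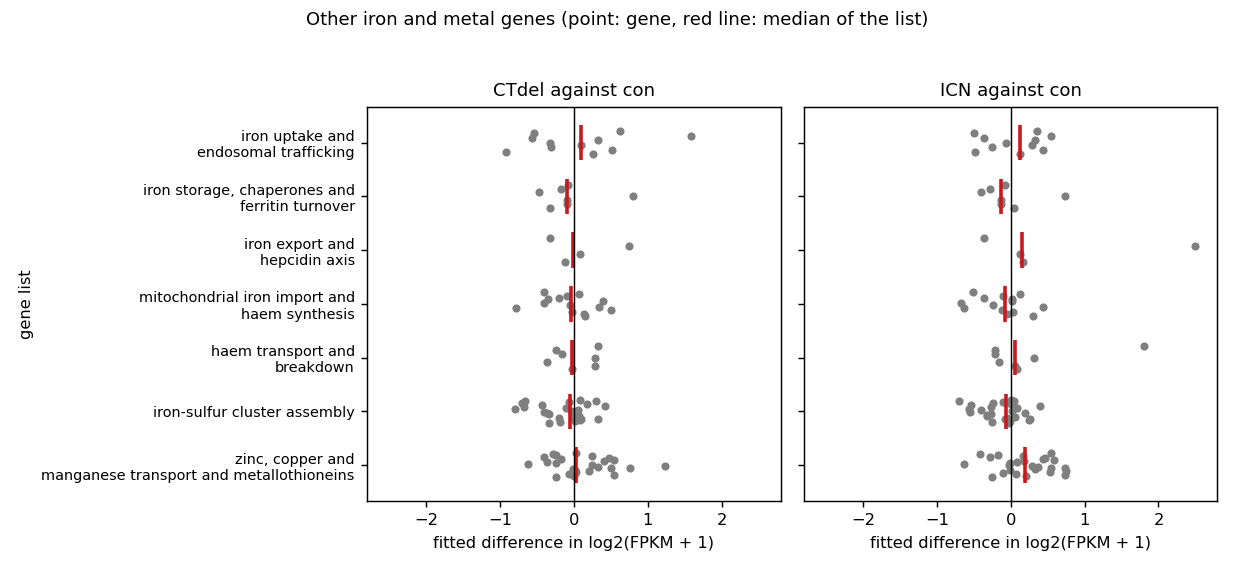
Fitted differences in log2(FPKM + 1) of the 95 tested genes of 7 lists (grey points) with the median of each list (red line), for CTdel against con and ICN against con. List medians lie between −0.13 and 0.19, and the points farthest out are Hamp and Hmox1 in ICN and Hfe in CTdel, none of which passed. Hamp and Hfe passed the filter on low values only through libraries with a Notch1 plasmid.

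Erythroid genes were read because red-cell precursors are rich in Tfrc and haem enzymes. Of 11 listed, 10 had values, and the summed level ran from 91.4 to 224 in CTdel, 166 to 386 in ICN and 135 to 601 in con, most of it Hba-a1, which was higher in replicate 2 than in replicate 1 in all 3 groups. Slc4a1 and Ahsp were at or under FPKM 0.12. Klf1, an erythroid factor, had 2.01 and 3.94 in CTdel, 4.35 and 3.26 in ICN, and 10.84 and 16.39 in con, and its part in the values above was not tested. Of the other lists, mast cell and basophil genes summed to at most 30 FPKM and T-cell genes to at most 2.46. Fibroblast and endothelial genes summed to at most 63.2, nearly all of it Pecam1, at 39.54 to 62.77. The other genes of that list were at or under 0.74.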

How the data were processed

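RNA of 6 BaF3 libraries was measured. The authors deposited FPKM per gene, 1 table per replicate number, per the file headers; the submitters' processing notes list HISAT2, Bowtie2 and RSEM, along with mm10 and hg19 as builds, without versions or what each was used for. The filter that made the tables is not given in the sources used here. Of 17877 and 17868 genes, 16799 were in both tables, and 26 symbols that had turned into dates were restored from their Gene IDs. A linear model of log2(FPKM + 1) was fitted in limma (version 3.58.1, R 4.3.3, 2-sided tests, variance trend on the mean) to the 11050 genes that reached FPKM 1 in 2 or more libraries, with Benjamini-Hochberg adjustment over all of them and a threshold of adjusted p under 0.05. Its terms were the 3 groups and the deposited table a library came from, which left 2 residual degrees of freedom and a median prior of 3.82. The fit was tested on simulated data. Coordinates, promoter windows and gene names come from RefSeq (GRCm38.p6), and transcripts from GENCODE M21 (GRCm38). The members, lists and tests were chosen with earlier results of these data known. Named genes were the members, in each list those called or else the 2 with the smallest p in CTdel against con, and the 5 most like Slc11a1; others are named as exceptions or as markers.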

Additional observations from a re-analysis of the deposited data

How the results depend on the processing

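With 2 libraries a group and FPKM with unknown read totals, the 95% intervals against con of Tfrc and Ftl1 span over 2 log2 units, and Aco1 and Slc40a1 fell under the filter on low values. Against 0 members called in each comparison, 0 were called under each alternative, with 1 exception. Without ICN replicate 1, which leaves 1 ICN library, Tfrc was called in ICN against con and in CTdel against ICN. Calls over all genes also rose widely in that fit, as given below. Those counts of members thus ran from 0 to 1 over the libraries left out. The table is the replicate block: without it limma called 130 genes in CTdel against con, 3 in ICN against con, 2 in CTdel against ICN and 132 in both forms against con, beside 156, 4, 2 and 123 with it, and 0 members in each. Deviations of same-numbered libraries correlated at 0.24 (CTdel and ICN), 0.33 (CTdel and con) and −0.10 (ICN and con) over genes, so the numbers are not shown to pair the libraries.

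Over all genes, without the filter 0 were called in each comparison (1592, 2328, 1386 and 2098 at an unadjusted p under 0.05 in CTdel against con, ICN against con, CTdel against ICN and both forms), in a fit of 16799 genes in place of 11050. With a pseudocount of 0.1, 0 were called in CTdel against ICN (744 unadjusted). With the groups compared fitted alone, 730 were called in CTdel against con and 162 in ICN against con; both forms together use all groups, so that fit was not run. Leaving out 1 library gave 109 to 731 calls in CTdel against con (729 and 731 without ICN replicates 1 and 2). It gave 11 to 1470 in ICN against con (161 and 160 without CTdel replicates 1 and 2, 1470 and 147 without ICN 1 and 2, 39 and 11 without con 1 and 2). It gave 2 to 891 in CTdel against ICN (7 without CTdel 1, 891 and 9 without ICN 1 and 2) and 48 to 1240 in both forms against con (189 and 249 without CTdel 1 and 2, 1240 and 577 without ICN 1 and 2, 48 without con 2). A library left alone in its group is assumed to vary like the others. The cause was not tested.

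Of 357 values of single members under the alternatives, 31 changed sign, 30 of them with a library left out. The log2 differences then ranged as follows. Against con in CTdel they were −0.72 to 0.22 for Fth1, −0.61 to 0.78 for Ftl1, −0.16 to 0.02 for Ireb2, −0.51 to 0.26 for Slc11a2, −0.56 to 0.20 for Steap3 and −0.64 to 0.87 for Tfrc. In ICN they were −0.06 to 0.88 for Fth1, −0.06 to 0.12 for Ireb2 (−0.02 with quantile normalization), −0.31 to 0.45 for Steap3 and −1.47 to 0.14 for Tfrc. For both forms they were −0.39 to 0.55 for Fth1, −0.26 to 1.07 for Ftl1, −0.11 to 0.07 for Ireb2, −0.44 to 0.32 for Steap3 and −1.03 to 0.48 for Tfrc. In CTdel against ICN they were −1.34 to 0.05 for Ftl1, −0.53 to 0.03 for Steap3 and −0.02 to 1.59 for Tfrc. Without a change of sign, Slc11a2 ran from −1.09 to −0.32 in ICN against con and from −0.80 to −0.03 for both forms, and in CTdel against ICN Fth1 ran from −0.95 to −0.36, Ireb2 from −0.15 to −0.06, Slc11a1 from −0.85 to −0.24 and Slc11a2 from 0.33 to 0.83.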
